A study of Mus musculus with 9 samples.

Results

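Levels of 9 mouse genes of the cardiac cell junction were compared in myocytes and fibroblasts of the embryonic heart and in fibroblasts of the adult heart. The genes were chosen by name, with earlier results of these data known. They are Cdh2, Cdh11, Cdh13, Dsg2, Dsc2, Dsp, Pkp2, Jup and Ctnna3. They make up 9 of the 19933 genes measured by an array probe with a single gene symbol, and each was represented by 1 such probe. RNA came from embryonic cardiomyocytes (Nkx-YFP+, so marked by a reporter named for a cardiac transcription factor), from cardiac fibroblasts of embryos and from cardiac fibroblasts of adults, with 3 biological replicates per group and 1 Affymetrix mouse Gene 1.0 ST array per replicate. The sources used here do not give the strain of the mice, the embryonic stage, the age of the adults or whether the cells were cultured. Values are log2 units made by RMA, a method that corrects background and normalizes arrays to each other, and 1 unit is a doubling of the signal.

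Cardiac myocytes are joined end to end at the intercalated disc. There, adherens junctions couple the actin filaments of neighbouring cells through N-cadherin and the catenins, desmosomes anchor the desmin filaments, and gap junctions carry current. In the mammalian heart, adherens and desmosomal proteins also mix in a hybrid junction, the area composita. Mutations in desmosomal genes are a known cause of arrhythmogenic cardiomyopathy. Cadherin-11 is best known as an adhesion molecule of mesenchymal cells, fibroblasts among them.

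The labels were set against lists of marker genes. The mean level of 12 cardiomyocyte markers lay between 12.36 and 12.49 in the cardiomyocyte arrays, between 10.80 and 11.52 in embryonic fibroblasts and between 7.77 and 8.13 in adult fibroblasts. The mean of 12 fibroblast markers lay between 8.97 and 9.26, between 10.35 and 10.60 and between 10.88 and 11.04 in the same order. Embryonic fibroblast arrays therefore held cardiomyocyte transcripts at levels well above those of adult fibroblasts, and all 12 of these markers passed the test between the fibroblast groups. Myocytes in a fibroblast preparation and expression of these markers by other cells in it cannot be told apart in such bulk samples. Nor can the number of any such myocytes and the RNA per myocyte. Adult fibroblast replicate 3 stood apart: over all probes its correlation with the other adult arrays averaged 0.970. The averages for replicates 1 and 2 were both 0.981. Its values also had a narrower spread over all probes (SD 1.71, against 1.83 and 1.85 in adult replicates 1 and 2).

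Of the 9 genes, 6 were lower and 1 was higher in embryonic fibroblasts than in cardiomyocytes, where 11.1% of all genes were lower and 10.3% higher. Between the fibroblast groups 8 were higher in the embryonic cells and 0 lower (all genes, 11.2% and 8.34%). In adult fibroblasts 8 were lower than in cardiomyocytes and 0 higher (all genes, 18.2% and 17.4%). In each comparison 8 of the 9 genes had groups whose values did not overlap (all genes, 39.1%, 33.0% and 45.9%). The comparisons share arrays and are not independent of each other. All cardiomyocytes were embryonic, so adult fibroblasts and cardiomyocytes differed in both age and cell type, which cannot be told apart here. A gene was called at an adjusted p under 0.05 by limma, adjusted over all 19933 genes. Across the 3 groups together, 8 of the 9 genes differed by limma's F test, as did 35.8% of all genes, and Jup was the exception (adjusted p = 0.756). The median log2 difference of the 9 genes was -0.98, 1.40 and -2.21 in the 3 comparisons, against -0.0003, -0.04 and 0.06 for all genes. Because the 9 genes were chosen with earlier results of these data known, the shares and medians of all genes are background, not a test.

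**Figure D1:**
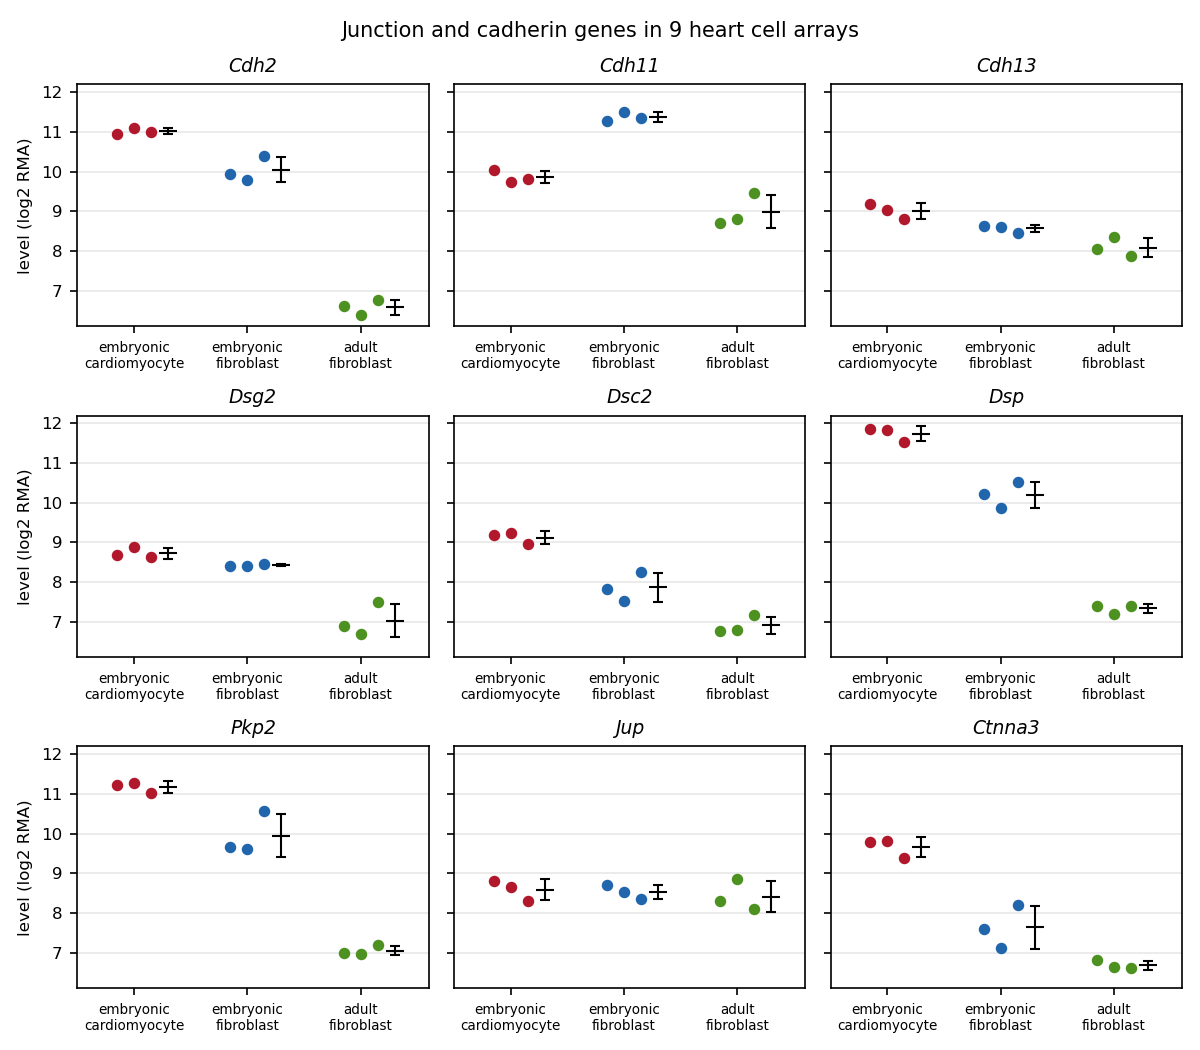
Level of each gene (log2 RMA units, vertical axis) in the 3 arrays of each group (coloured points), with the group's mean and SD (black bar and whiskers). Cdh2, Dsp and Pkp2 have means from 11.02 to 11.74 in cardiomyocytes and from 6.59 to 7.33 in adult fibroblasts, Cdh11 is highest in embryonic fibroblasts, and the groups overlap in Jup.

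Cdh2 encodes N-cadherin, the classical cadherin of the myocyte adherens junction. Its values were 10.96, 11.10 and 11.01 in cardiomyocyte replicates 1 to 3, 9.95, 9.79 and 10.40 in embryonic fibroblasts, and 6.62, 6.38 and 6.76 in adult fibroblasts. The 3 groups did not overlap, and the adult arrays lay far below all embryonic ones. Cdh2 was 21.7-fold lower in adult fibroblasts than in cardiomyocytes (-4.44 ± 0.16 in log2 units, SE of the fit, n = 3 in each group, adjusted p = 1.77e-07), a difference ranked 50 by size among all genes. Embryonic fibroblasts were 11.0-fold above adult fibroblasts (3.46 ± 0.16, adjusted p = 1.45e-06), which ranked 40, and 1.97-fold below cardiomyocytes (-0.98 ± 0.16, adjusted p = 0.00206). All 3 adult values lay under the 30th percentile of their array.

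Cdh11 encodes cadherin-11, a classical cadherin of mesenchyme. It stood at 10.05, 9.75 and 9.81 in cardiomyocytes, 11.28, 11.52 and 11.35 in embryonic heart fibroblasts, and 8.71, 8.80 and 9.46 in adult fibroblasts. Every embryonic fibroblast array lay above every other array, and the adult fibroblasts were the lowest group. Cdh11 was 2.86-fold higher in embryonic fibroblasts than in cardiomyocytes (1.51 ± 0.19, adjusted p = 0.000559) and 5.25-fold higher than in adult fibroblasts (2.39 ± 0.19, adjusted p = 2.66e-05). Adult fibroblasts lay 1.84-fold below cardiomyocytes (-0.88 ± 0.19, adjusted p = 0.00442). Cdh11 was therefore not higher in both fibroblast groups than in the myocytes. Adult replicate 3, the array that stood apart, was the highest adult array in Cdh11, as it was in Cdh2, Dsp, Pkp2, Dsg2 and Dsc2.

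Cdh13 encodes T-cadherin, which is tethered to the membrane by a lipid anchor and has no cytoplasmic tail to bind catenins. Its values were 9.20, 9.03 and 8.81 in cardiomyocytes, 8.63, 8.62 and 8.47 in embryonic heart fibroblasts, and 8.04, 8.34 and 7.88 in adult fibroblasts. The groups did not overlap, and cardiomyocytes were highest. Adult fibroblasts were 1.90-fold below cardiomyocytes (-0.92 ± 0.14, adjusted p = 0.000505). The steps between neighbouring groups were small and close to the threshold: -0.44 ± 0.14 from cardiomyocytes to embryonic fibroblasts (adjusted p = 0.0468) and 0.48 ± 0.14 between the fibroblast groups (adjusted p = 0.0340). The first call was lost without cardiomyocyte replicate 1 or 2, any embryonic fibroblast replicate or adult replicate 1 (adjusted p = 0.164, 0.127, 0.0940, 0.101, 0.132 and 0.0632), and with arrays centred on their medians (0.0528). The second was lost without cardiomyocyte replicate 2, any embryonic fibroblast replicate or adult replicates 1 or 3 (adjusted p = 0.0574, 0.109, 0.104, 0.0520, 0.0927 and 0.0726), and with centred arrays (0.0516).

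The 3 cadherins thus changed by different amounts from group to group. The within-array difference of Cdh11 minus Cdh2 was -1.16 ± 0.23 (SD, n = 3) in cardiomyocytes, 1.34 ± 0.39 in the embryonic fibroblasts and 2.41 ± 0.31 in adult fibroblasts. Levels of different probes are not comparable, so only the change of this difference between groups is read: it moved by 2.49 log2 units between the embryonic groups and by 3.56 from cardiomyocytes to adult fibroblasts. An exact permutation test of the F statistic over all 1680 assignments of the 9 arrays gave p = 0.00357, the smallest it can give (adjusted p = 0.0125 over the 7 gene pairs tested). The exact tests for Cdh13 minus Cdh2 and for Cdh11 minus Cdh13 gave p = 0.00714 and p = 0.0357 (adjusted p = 0.0125 and 0.0417). All tests of gene pairs use the same 9 arrays as the limma fit and are not independent of it. Cdh11 minus Cdh13 was highest in embryonic fibroblasts (2.81 ± 0.14, SD) and lower in the other groups, 0.86 ± 0.14 in cardiomyocytes and 0.90 ± 0.60 in adult fibroblasts.

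Dsg2 and Dsc2 encode desmoglein-2 and desmocollin-2, the transmembrane cadherins that face each other across the desmosome and are the isoforms of heart muscle. Dsg2 stood at 8.68, 8.87 and 8.62 in cardiomyocytes, 8.41, 8.41 and 8.46 in embryonic heart fibroblasts, and 6.89, 6.69 and 7.50 in adult fibroblasts. The embryonic groups lay close together and adult fibroblasts below both. Dsg2 was 2.64-fold higher in embryonic than in adult fibroblasts (1.40 ± 0.18, adjusted p = 0.000553) and 3.24-fold lower in adult fibroblasts than in cardiomyocytes (-1.70 ± 0.18, adjusted p = 5.86e-05). Its difference between the embryonic groups did not pass the test (-0.30 ± 0.18, 95% interval -0.70 to 0.11, adjusted p = 0.320), but passed without adult replicate 3 (adjusted p = 0.0339), with array weights (0.0317) and with only the embryonic groups fitted (0.0344). The SE of this fit includes the wide adult spread (SD 0.42 against 0.03 in embryonic fibroblasts). At the 3 decimals deposited, 27.5% of all genes had 2 or 3 identical values within a group, as Dsg2 had in embryonic fibroblast replicates 1 and 2.

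Dsc2 fell between all groups. It was 9.19, 9.23 and 8.95 in cardiomyocytes, 7.82, 7.53 and 8.25 in embryonic heart fibroblasts, and 6.78, 6.79 and 7.16 in adult fibroblasts. No group overlapped with another, and 2 of the adult values lay under the 30th percentile of their array. Dsc2 was 2.39-fold lower in embryonic fibroblasts than in cardiomyocytes (-1.26 ± 0.18, adjusted p = 0.00127), and 1.94-fold higher than in adult fibroblasts (0.95 ± 0.18, adjusted p = 0.00509). Adult fibroblasts were 4.63-fold below cardiomyocytes (-2.21 ± 0.18, adjusted p = 1.16e-05). The desmosomal cadherins did not move in step: Dsg2 minus Dsc2 was -0.40 ± 0.10 (SD, n = 3) in cardiomyocytes, 0.56 ± 0.34 in the embryonic fibroblasts and 0.12 ± 0.22 in adult fibroblasts (exact permutation test p = 0.00714, adjusted p = 0.0125).

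In the mouse genome Dsg2 and Dsc2 belong to a cluster of 9 neighbouring desmosomal cadherin genes (RefSeq annotation of GRCm38.p6), ordered Dsc3, Dsc2, Dsc1, Dsg1c, Dsg1a, Dsg1b, Dsg4, Dsg3 and Dsg2. Of these, 7 were measured by a probe with a single symbol. The remaining 5 measured genes encode desmosomal cadherins known from skin and its appendages. Dsc3 had group means of 6.13 in cardiomyocytes, 6.07 in the embryonic fibroblasts and 6.25 in adult fibroblasts. Dsg1b had the highest group means of the 5 (6.65, 6.80 and 6.82) and Dsg4 the lowest (5.34, 5.43 and 5.45). None of these 5 genes was called in any comparison, so among the measured genes of the cluster only Dsg2 and Dsc2 were. Among all genes, 8.34% to 18.2% were called in each direction of a comparison. The group means of the 5 lay below or close to the 30th percentile of the arrays, which was at least 6.80. Differences in such dim genes may be missed, so the lack of calls does not set them apart from Dsg2 and Dsc2.

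The desmosomal plaque, on the inner side of the membrane, is built from desmoplakin, plakophilin and plakoglobin. Dsp encodes desmoplakin, which ties the plaque to intermediate filaments. Its values were 11.86, 11.83 and 11.53 in cardiomyocytes, 10.21, 9.85 and 10.52 in embryonic heart fibroblasts, and 7.40, 7.20 and 7.41 in adult fibroblasts. The groups were far apart and did not overlap. Dsp was 21.2-fold lower in adult fibroblasts than in cardiomyocytes (-4.41 ± 0.16, adjusted p = 1.94e-07), a difference of rank 54 among all genes. Embryonic fibroblasts lay 2.92-fold below cardiomyocytes (-1.54 ± 0.16, adjusted p = 0.000290) and 7.27-fold above adult fibroblasts (2.86 ± 0.16, adjusted p = 4.26e-06).

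Pkp2 encodes plakophilin-2, an armadillo-repeat protein that links the desmosomal cadherins to desmoplakin and is the gene most often mutated in arrhythmogenic cardiomyopathy. It stood at 11.23, 11.29 and 11.02 in cardiomyocytes, 9.66, 9.61 and 10.57 in embryonic heart fibroblasts, and 6.99, 6.98 and 7.19 in adult fibroblasts. Again no groups overlapped, and embryonic fibroblast replicate 3 lay well above the other arrays of its group. Pkp2 was 17.5-fold lower in adult fibroblasts than in cardiomyocytes (-4.13 ± 0.23, adjusted p = 1.19e-06). The embryonic fibroblasts were 2.35-fold below cardiomyocytes (-1.24 ± 0.23, adjusted p = 0.00414) and 7.43-fold above adult fibroblasts (2.89 ± 0.23, adjusted p = 2.91e-05). Of the 7 gene pairs, Pkp2 and Dsp were the pair whose difference did not pass the exact permutation test among groups (-0.56 ± 0.06, -0.25 ± 0.30 and -0.28 ± 0.11, SD, n = 3 each, p = 0.189, adjusted p = 0.189), although it passed without embryonic fibroblast replicate 1 (adjusted p = 0.0167).

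Jup encodes plakoglobin, the armadillo protein that joins cadherin tails in desmosomes and adherens junctions alike. It stood at 8.80, 8.67 and 8.31 in cardiomyocytes, 8.72, 8.54 and 8.35 in embryonic heart fibroblasts, and 8.30, 8.85 and 8.09 in adult fibroblasts. The groups overlapped in every comparison. The differences were -0.06 between the embryonic groups (95% interval -0.51 to 0.40, adjusted p = 0.903), 0.12 between the fibroblast groups (-0.33 to 0.57, adjusted p = 0.723) and -0.18 between adult fibroblasts and cardiomyocytes (-0.63 to 0.27, adjusted p = 0.536). The intervals allow a difference of up to 0.63 log2 units, well under those of Dsp. Dsp minus Jup fell from 3.15 ± 0.09 (SD, n = 3) in cardiomyocytes to 1.66 ± 0.45 in embryonic fibroblasts and -1.08 ± 0.51 in adult fibroblasts (exact permutation test p = 0.00357, adjusted p = 0.0125).

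The upstream sequences of Dsp and Jup are shown because these plaque genes had the most and the least different levels across the groups. Each line gives the 250 bases before the annotated start, 5′ to 3′ on the strand of the gene, from RefSeq (GRCm38.p6): chr13:38151044-38151293, plus strand, for Dsp and chr11:100397791-100398040, minus strand, for Jup. Capitals mark matches on either strand to GGGCGG (the GC box) or CCAAT.
Dsp: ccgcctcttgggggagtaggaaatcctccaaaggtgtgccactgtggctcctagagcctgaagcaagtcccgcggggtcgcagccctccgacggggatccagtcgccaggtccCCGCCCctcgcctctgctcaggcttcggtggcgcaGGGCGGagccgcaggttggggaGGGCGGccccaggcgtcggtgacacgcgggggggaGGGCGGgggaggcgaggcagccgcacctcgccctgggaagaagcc
Jup: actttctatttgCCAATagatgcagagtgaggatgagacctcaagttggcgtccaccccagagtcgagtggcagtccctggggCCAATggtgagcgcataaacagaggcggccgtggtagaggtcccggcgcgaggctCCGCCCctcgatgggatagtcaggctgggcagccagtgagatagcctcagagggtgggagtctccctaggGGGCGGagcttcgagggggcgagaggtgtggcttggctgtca
The Dsp window held 4 GC boxes, beginning 137, 102, 80 and 45 bases before the start, and no CCAAT. The Jup window held 2 GC boxes, beginning 112 and 42 bases before the start, and 2 CCAAT matches, at 238 and 167. A GC box occurred in 32.7% of the 32851 promoters of this length and CCAAT in 33.8%. Neither window held TATAAA (12.4% of promoters), GATAA (22.6%), CACCTG (17.2%), the core bound by repressors of the Snail and Zeb families, or the MEF2 consensus (2.92%), and no searched motif overlapped another. Of the bases, 72.4% were G or C for Dsp and 62.0% for Jup, against a median of 52.4% over all promoters. These matches describe the letters in the windows only, and the arrays measured transcripts, not the activity of promoters. Promoters in the table were matched for 3 of the 9 genes, the third being Ctnna3.

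Ctnna3 encodes alpha-T-catenin, the alpha-catenin of heart and testis that binds both the cadherin complex and plakophilin-2 in the area composita. Its values were 9.78, 9.83 and 9.39 in cardiomyocytes, 7.60, 7.13 and 8.19 in embryonic heart fibroblasts, and 6.81, 6.63 and 6.61 in adult fibroblasts. The cardiomyocytes stood clear of both fibroblast groups, and all adult values lay under the 30th percentile of their arrays. Ctnna3 was 4.08-fold lower in embryonic fibroblasts than in cardiomyocytes (-2.03 ± 0.24, adjusted p = 0.000433), the largest difference of the 9 genes in that comparison, at rank 82 among all genes. In adult fibroblasts it was 7.90-fold lower than in cardiomyocytes (-2.98 ± 0.24, adjusted p = 9.05e-06). The difference between the fibroblast groups was smaller (0.96 ± 0.24, adjusted p = 0.0188), and its call was lost without embryonic replicate 1 (adjusted p = 0.0543), without adult replicate 2 (0.0556) and with only the fibroblasts fitted (0.0538). The broadly expressed alpha-E-catenin gene, Ctnna1, was called in none of the comparisons (10.65, 10.65 and 10.26). Ctnna3 minus Ctnna1 moved by -2.03 log2 units between the embryonic groups and by -2.60 from cardiomyocytes to adult fibroblasts (exact permutation test p = 0.0143, adjusted p = 0.0200).

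**Figure D2:**
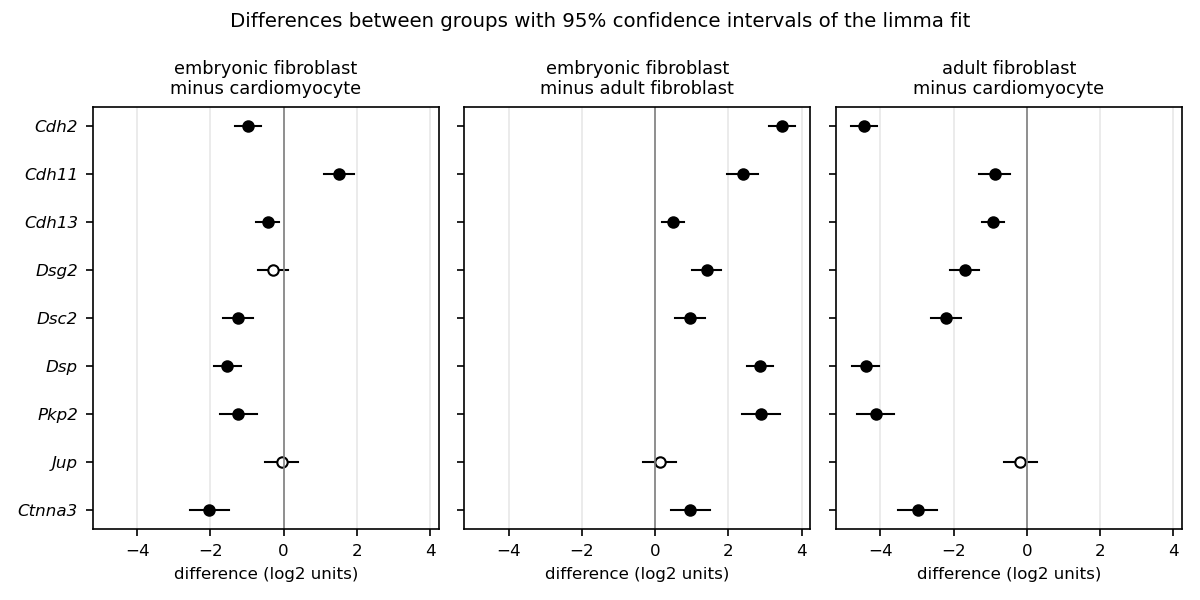
Log2 difference of each gene in the 3 comparisons (horizontal axis), with the 95% confidence interval of the limma fit; filled points passed the test at an adjusted p under 0.05. The intervals of Jup include 0 in all panels, Cdh11 is the gene above 0 in the first, and Cdh2, Dsp and Pkp2 lie beyond -4 in the third.

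The embryonic fibroblasts lay at different points between the other groups from gene to gene. Taking the log2 step from adult fibroblasts to cardiomyocytes as 100%, embryonic fibroblasts stood at 82.6% for Dsg2, 78.0% for Cdh2, 70.1% for Pkp2, 65.0% for Dsp, 52.4% for Cdh13, 43.1% for Dsc2 and 32.0% for Ctnna3. Cdh11 lay outside this range, since embryonic fibroblasts exceeded both groups. Jup is left out, since its groups overlapped. For the 12 cardiomyocyte markers the same measure ran from 45.3% (Mybpc3) to 93.4% (Actc1), with a median of 71.8%. Percentages on the log2 scale are not shares of signal, and their differences between genes were not tested. The measure depends on the adult end of the step: where adult values lay under the 30th percentile of their array, as in Cdh2, Ctnna3, 2 arrays of Dsc2 and 1 of Dsg2, a lower true level would raise the percentage.

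Within the embryonic fibroblast group, several of the genes varied with the cardiomyocyte markers. The markers' mean level was 11.18, 10.80 and 11.52 in replicates 1 to 3. All 12 were highest in replicate 3 and lowest in replicate 2, as were Cdh2, Dsp, Pkp2, Dsc2 and Ctnna3. The same order was found in 5 of the 9 genes and in 14.6% of all genes. Cdh11 was instead highest in replicate 2, and Cdh13 and Jup were highest in replicate 1. The mean of 12 macrophage markers shared the order (8.35, 8.11 and 8.53), while fibroblast markers were highest in replicate 1. The part that any myocyte RNA in the embryonic fibroblast preparations had in these levels was not tested. Markers of epicardial, mesothelial and epithelial cells, which also build desmosomes, had mean levels from 8.18 to 8.32 in embryonic fibroblasts, 7.66 to 7.77 in cardiomyocytes and 7.54 to 7.67 in adult fibroblasts. Of 12 such markers 5 were higher in embryonic fibroblasts than in cardiomyocytes (all genes, 10.3%) and 8 higher than in adult fibroblasts (all genes, 11.2%). The part of such cells was not tested either.

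**Figure D3:**
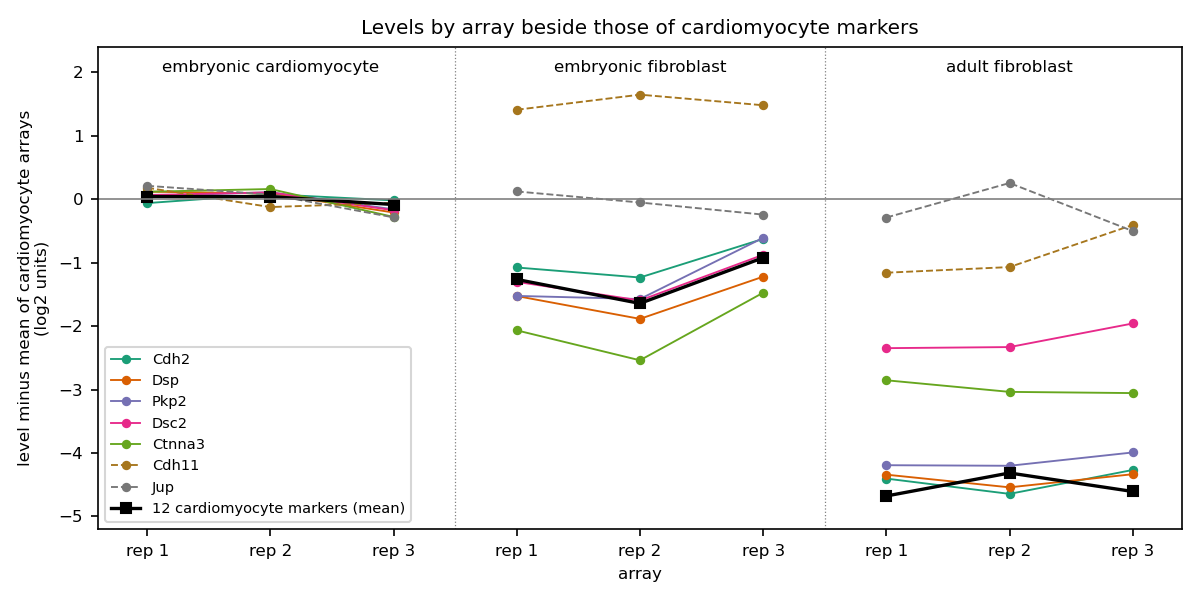
Level in each array minus the mean of the 3 cardiomyocyte arrays (log2 units, vertical axis) for 7 of the genes and for the mean of 12 cardiomyocyte markers (black squares); lines only join the points of a gene within a group, and replicate numbers have no order. In embryonic fibroblasts Cdh2, Dsp, Pkp2, Dsc2 and Ctnna3 share the markers' high replicate 3 and low replicate 2, whereas Cdh11 and Jup do not.

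Other junction genes were counted in lists, which are read against the shares of all genes called in the same direction. The lists too were chosen with earlier results of these data known, so these shares are background, not a test. Of 10 further desmosome genes measured, 1 was called in each comparison. This is no more than the shares of all genes called in the same directions (11.1%, 11.2% and 18.2%). The gene was Perp, a membrane protein of desmosomes (9.23 ± 0.22, 8.27 ± 0.41 and 7.23 ± 0.26, SD, n = 3, in cardiomyocytes, embryonic and adult fibroblasts). Perp was lower in embryonic fibroblasts than in cardiomyocytes (-0.96, adjusted p = 0.00989) and lower still in adult fibroblasts (-2.00, adjusted p = 5.48e-05). The other 9, mostly of stratified epithelia, such as Pkp1, Pkp3, Ppl and Evpl, had group means between 5.34 and 8.17 and passed in no comparison. Those of the desmosomal cadherin cluster lay below or close to the 30th percentile of the arrays, so differences in them may have been missed.

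Among 18 catenins and adherens junction adaptors, 4 were lower and 1 was higher in embryonic fibroblasts than in cardiomyocytes (all genes, 11.1% and 10.3%), and 7 were lower and 0 higher in adult fibroblasts than in cardiomyocytes (all genes, 18.2% and 17.4%). Sorbs2, a cytoskeletal adaptor of the intercalated disc (-2.14 and -4.96), and Lmo7, a junctional LIM protein (-1.49 and -2.46), showed the largest decreases, and the actinin gene Actn1 was the member that rose between the embryonic groups (0.70 ± 0.21, adjusted p = 0.0447). The core catenin Ctnnb1 was called in none of the comparisons, with means of 10.76, 11.12 and 10.64. Of the 18 genes 6 were higher in embryonic than adult fibroblasts and 0 lower (all genes, 11.2% and 8.34%), Ctnnal1 among them (1.66 ± 0.15, adjusted p = 7.71e-05).

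Of 13 gap junction, channel and scaffold genes measured, 5 were lower and 1 was higher in embryonic fibroblasts than in cardiomyocytes (all genes, 11.1% and 10.3%), and 6 were lower and 2 higher in adult fibroblasts than in cardiomyocytes (18.2% and 17.4%). Between the fibroblast groups 6 were higher in the embryonic cells and 2 lower (11.2% and 8.34%). The counts of genes higher in either fibroblast group than in cardiomyocytes were no more than the shares of all genes. The connexin gene Gja5 fell by 2.05 and 3.11 log2 units in these comparisons (adjusted p = 4.80e-05 and 4.13e-07), and Popdc2, a cyclic AMP-binding membrane protein of muscle, by 1.52 and 3.71. Gja1, the main ventricular connexin gene, which fibroblasts also express, was lowest in embryonic fibroblasts (11.07 ± 0.05 against 11.46 ± 0.13 in cardiomyocytes and 11.47 ± 0.05 in adult fibroblasts). Of 15 genes that attach filaments at the disc, 8 were lower and 1 higher in embryonic fibroblasts than in cardiomyocytes (all genes, 11.1% and 10.3%). In adult fibroblasts 11 were lower and 0 higher than in cardiomyocytes (18.2% and 17.4%). Between the fibroblast groups 9 were higher in the embryonic cells and 0 lower (11.2% and 8.34%). Actn2 of this list is also among the cardiomyocyte markers. Actn2, the sarcomeric actinin (-1.86 and -4.93), Csrp3 (-1.36 and -4.09) and Nrap (-1.48 and -2.69) had the largest decreases in adult fibroblasts and Actn2, Nrap and Ldb3 (-1.47) those in embryonic fibroblasts, and desmin, Des, fell by 1.07 and 2.53. Median log2 differences between adult fibroblasts and cardiomyocytes were 0.12 for the further desmosome genes, -0.33 for catenins and adaptors, -0.18 for gap junction genes and -1.21 for filament attachment genes, against 0.06 for all genes.

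Of 16 further classical cadherins measured, 2 were higher and 2 lower in embryonic fibroblasts than in cardiomyocytes (all genes, 10.3% and 11.1%), and 3 higher and 3 lower in adult fibroblasts than in cardiomyocytes (17.4% and 18.2%). Both are close to the shares of all genes. Between the fibroblast groups 3 were higher in the embryonic cells and 1 lower (11.2% and 8.34%). Cdh5, the endothelial cadherin, was higher in embryonic fibroblasts (1.83 ± 0.37, adjusted p = 0.00654) and adult fibroblasts (1.44 ± 0.37, adjusted p = 0.0126) than in cardiomyocytes. The mean of 12 endothelial markers moved with it, from 8.16 to 8.47 in cardiomyocytes, 9.02 to 9.44 in the embryonic fibroblasts and 8.48 to 9.46 in adult fibroblasts, and its part was not tested. Cdh19, known from Schwann cells, was higher in adult fibroblasts than in cardiomyocytes (2.62 ± 0.18, adjusted p = 4.25e-06) and embryonic fibroblasts (7.45 ± 0.43 against 4.93 ± 0.14, SD), while 0 of 8 Schwann cell and glial markers were called by limma in any comparison, and 0 had an unadjusted p under 0.05. Cdh10 was higher in embryonic fibroblasts than in both other groups (1.10 ± 0.09 and 1.02 ± 0.09), and P-cadherin, Cdh3, was lower in both fibroblast groups than in cardiomyocytes (-0.86 and -1.45). Cdh19 in cardiomyocytes and embryonic fibroblasts (means of 4.83 and 4.93) and Cdh10 in cardiomyocytes and adult fibroblasts (5.81 and 5.89) lay below the 30th percentile of the arrays, which was at least 6.80, so their differences may be understated.

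Of 20 protocadherins and giant cadherins, 4 were higher and 2 lower in embryonic fibroblasts than in cardiomyocytes (all genes, 10.3% and 11.1%), 5 higher and 4 lower in adult fibroblasts than in cardiomyocytes (17.4% and 18.2%), and 5 higher and 1 lower in embryonic than in adult fibroblasts (11.2% and 8.34%). Pcdh9 was higher in both fibroblast groups (1.69 and 2.01), Pcdh19 in adult fibroblasts (1.67 ± 0.08, adjusted p = 5.65e-07, from a dim mean of 6.56 in cardiomyocytes), and Fat3 was lower in both (-0.92 and -1.96). Among 7 transcription factors known to repress cadherin genes, 3 were higher in embryonic fibroblasts than in cardiomyocytes (all genes, 10.3%) and 4 in adult fibroblasts (17.4%), with 0 lower in either. Between the fibroblast groups 0 were higher in the embryonic cells and 2, Zeb1 and Zeb2, were lower (all genes, 11.2% and 8.34%). Zeb2 showed the largest differences (1.14 ± 0.09 and 1.72 ± 0.09, adjusted p = 7.32e-05 and 8.95e-07). Twist1 (1.05) and Snai2 (0.70) also rose in embryonic fibroblasts, and Snai2 (0.95), Zeb1 (0.65) and Twist2 (0.41) in adult fibroblasts. Any link between these factors and the levels of the cadherin and desmosome genes described here was not tested.

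**Figure D4:**
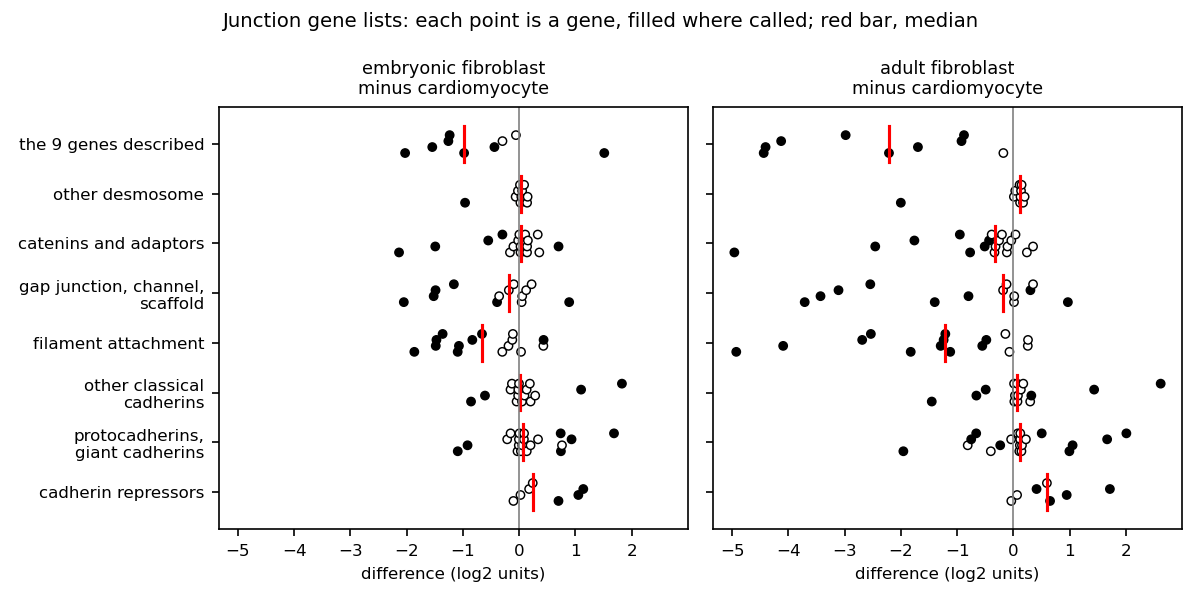
Log2 difference (horizontal axis) of each gene in the lists of junction genes for embryonic fibroblasts (left) and adult fibroblasts (right) against cardiomyocytes; filled points passed the test, and red bars are list medians. The filament attachment list has a median of -1.21 in adult fibroblasts, and in the list of other desmosome genes only Perp is filled.

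Genes with the most similar profiles were found by the root mean square (RMS) difference over the 9 arrays after each gene was set to its own mean, among 2928 genes whose group means span at least 1 log2 unit. The closest to Dsp were Pgam2, a muscle glycolytic enzyme (0.17 log2 units), Ryr2, the calcium release channel (0.18), and Sh3bgr (0.19). Closest to Pkp2 were Csrp3, a muscle LIM protein (0.16), Gyg, glycogenin (0.17), and Kif11, a mitotic kinesin (0.18), and closest to Cdh2 were Idh2 (0.15), the myosin light chain gene Myl4 (0.18) and Anln (0.19). For Ctnna3 they were Mylk3, the cardiac myosin light chain kinase (0.10), Alpk2 (0.15) and dystrophin, Dmd (0.17), and for Dsc2 the metabolic genes Phyh (0.09), Cox6a2 (0.10) and Ndufaf5 (0.11). Dsg2 was closest to Xpo1 (0.12), Cks1b (0.14) and Atpif1 (0.15). Cdh11 was closest to Adgrg6 (0.17), the matrix gene Hapln1 (0.18) and the growth factor gene Ptn (0.19), and Cdh13 to Ddost, Mtus1 (both 0.10) and Banf1 (0.13). The group means of Cdh13 and of Jup span less than 1 log2 unit, so genes of their own span were not in this set. The genes named for Cdh13 are therefore the nearest among genes of wider span only. For Jup the nearest genes are not given. Among the 9 genes themselves, the nearest pair was Dsp and Pkp2 (0.21), followed by Cdh2 and Pkp2 (0.27) and Cdh2 and Dsp (0.30), and the farthest was Cdh2 and Jup (1.87).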

How the data were processed

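Values of 28767 probes on 9 arrays were deposited by the authors as log2 values made with RMA (version not stated), per the submitters' processing notes. The log base is not stated: values from 2.70 to 14.20 were read as log2. The sources used here name no genome build or annotation. Groups and replicate numbers came from the sample titles. Probes with a single gene symbol in the platform annotation numbered 21776, and 21686 of them were found in the RefSeq table of GRCm38.p6, which changed 0 symbols. Where a gene had several probes, that with the highest mean was kept (19933 genes).

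A model with 3 group means was fitted in R 4.3.3 by limma 3.58.1 (lmFit, then eBayes, two-sided, Benjamini-Hochberg adjustment over all genes, no filter on dim genes), and checked on simulated data. Pairs of genes were compared by an exact permutation test of the F statistic of their within-array difference. Named genes are the 9 genes, up to 4 called genes of each list with the largest difference, the desmosomal cadherin cluster and the 3 nearest profiles of each gene except Jup. Desmin, Gja1, Ctnnb1, Ctnna1, Pkp1, Pkp3, Ppl and Evpl were named after their values were seen. The genes and lists were chosen with earlier results of these data known. The alternatives tried were a block for the replicate number, centring, quantile normalization, a filter on dim genes, other choices of probe, array weights, fits of only the groups compared, trended and robust moderation, and leaving out arrays. The number of arrays limits the precision. The replicates are described as biological, and whether they came from separate animals or litters is not stated. Same-numbered arrays of different groups deviated together with correlations from -0.20 to 0.20, and 3 of the 9 pairs exceeded 0.1, so the numbers were not taken to pair the samples. Python 3.11.15 and matplotlib 3.10.9 served for the figures.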

Additional observations from a re-analysis of the deposited data

How the results depend on the processing

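Over the 19 alternatives of each pairwise comparison, embryonic fibroblasts had 5 to 7 of the 9 genes lower than cardiomyocytes and 1 higher, and 6 to 8 higher than adult fibroblasts with 0 lower. Adult fibroblasts had 8 lower and 0 higher than cardiomyocytes in each of the 19, and 8 genes differed among the 3 groups in each alternative run. Of the 7 gene pairs, 6 or 7 passed. With the replicate number as a block the counts were 1 higher and 6 lower, 8 and 0, and 0 and 8 for the 3 comparisons, and the block changed no call of the 9 genes. Jup, not called under any alternative, changed sign in 4 cases: to 0.049 between the embryonic groups without cardiomyocyte replicate 1, to 0.036 there without embryonic fibroblast replicate 3 and also without replicate 3 of both fibroblast groups, and to -0.041 between the fibroblast groups without adult replicate 3. Leaving out single arrays gave Jup a range of -0.200 to 0.049 between the embryonic groups of -0.041 to 0.338 between the fibroblast groups, and of -0.395 (without adult replicate 2) to -0.016 (without adult replicate 3) between adult fibroblasts and cardiomyocytes. Calls that were lost or gained concerned Cdh13, Ctnna3, Dsg2 and the pair Pkp2 and Dsp. Cdh13 also lost its call between the embryonic groups with trended and robust moderation (adjusted p = 0.0523) and without replicate 3 of both fibroblast groups (0.0650), and between the fibroblast groups with only these fitted (0.0555) and without replicate 3 of both (0.0714). The cause of these changes was not tested. RMA values hold no background measure per probe, so for the adult values under the 30th percentile of their arrays (all 3 of Cdh2 and Ctnna3, 2 of Dsc2 and 1 of Dsg2) the folds may be understated.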

Other observations

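Besides the probe used for Cdh11, the array has 3 probes whose annotation names Cdh11 together with other symbols, which were left out of all comparisons. Their group means spanned 0.25, 0.41 and 0.29 log2 units, against 2.39 for the probe that names Cdh11 alone. In each of the 3 the embryonic fibroblasts had the highest mean, as in 11.20 against 10.79 in cardiomyocytes and 10.98 in adult fibroblasts for the probe with the widest span. Which of the named transcripts these probes measure is not known here.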
